A study of Mus musculus with 28 samples.

Results

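The comparison described here asks which hippocampal genes differ between carriers and non-carriers of the 5xFAD transgenes when Zbp1, which encodes a sensor of Z-form nucleic acids, has been knocked out in both. Its members were chosen by genotype label. They are 6 bulk RNA-seq libraries of 28 in the series, 3 labelled Zbp1-/-, 5xFAD (Zbp1 KO 5xFAD) and 3 labelled Zbp1-/- (Zbp1 KO). Within the same cohort of 12 libraries, 3 libraries each from 5xFAD and WT mice with intact Zbp1 gave the matching comparison without the knockout. A second cohort of 12 supplied Ripk1 D138N 5xFAD and Ripk1 D138N mice, which carry kinase-dead RIPK1 and intact Zbp1. All of these were hippocampi of mice aged 9 months, taken after behaviour tests, and each mutant line had WT mice of its own. Both groups of the main comparison are labelled as Zbp1 knockouts and differ by label in the 5xFAD transgenes only. No label states whether the 3 libraries of a group are 3 animals, and the p-values below therefore measure spread between libraries, which may be technical.

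The 5xFAD line is a mouse model of amyloid deposition whose transgenes, including a mutant human APP, are driven in neurons by the promoter of mouse Thy1. Around amyloid plaques, microglia, the resident macrophages of the brain, take on a disease-associated state in which phagocytic, lipid-handling and lysosomal genes are raised through the receptor TREM2. Astrocytes near plaques become reactive and raise GFAP, and both cell types make complement. A further set of genes, induced by type I interferon through the factor complex ISGF3, is also raised in amyloid-bearing brain. ZBP1 is itself induced by interferon and can pass signals to RIPK1 and RIPK3, which is the background for testing the transgenes in mice without it. In bulk tissue, a change in the number of cells of a type and a change in RNA per cell cannot be told apart.

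The promoters of 5 genes that rose in Zbp1 KO 5xFAD libraries are shown because each belongs to one of the gene groups described below and holds a motif of a factor known to act in that group. Called genes of these groups without the motif are not shown. The windows therefore do not show how common a motif is in its group. Each window runs from 250 bases before the RefSeq transcription start to 50 bases after it, on GRCm38.p6 and in the direction of the gene, and capitals mark the motif on either strand. Ifit3 and Trim30a, interferon-induced genes, and Cxcl10, an interferon-induced chemokine, hold the core of the interferon-stimulated response element bound by ISGF3, searched as a pair of GAAA boxes with any 2 bases between them. Of 32851 RefSeq promoter windows of this length, 3.44% hold that core. Ctsd, encoding the lysosomal protease cathepsin D, holds the CLEAR element TCACGTGA of the lysosomal regulator TFEB, found in 0.974% of windows. C1qc, a subunit of complement C1q, holds the site GAGGAAGT of the myeloid factor PU.1, found in 3.2% of windows. The motifs do not overlap each other, and a match describes letters in the window and is no evidence of binding.
Ifit3, chr19:34583279-34583578, plus strand, motifs starting 156 and 122 bases before the start: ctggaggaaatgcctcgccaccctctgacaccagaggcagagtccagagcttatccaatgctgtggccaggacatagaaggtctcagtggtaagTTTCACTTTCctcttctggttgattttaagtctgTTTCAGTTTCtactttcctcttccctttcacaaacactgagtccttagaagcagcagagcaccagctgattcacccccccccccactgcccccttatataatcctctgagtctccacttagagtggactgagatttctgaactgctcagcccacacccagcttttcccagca
Trim30a, chr7:104465144-104465443, minus strand, motif starting 36 bases before the start: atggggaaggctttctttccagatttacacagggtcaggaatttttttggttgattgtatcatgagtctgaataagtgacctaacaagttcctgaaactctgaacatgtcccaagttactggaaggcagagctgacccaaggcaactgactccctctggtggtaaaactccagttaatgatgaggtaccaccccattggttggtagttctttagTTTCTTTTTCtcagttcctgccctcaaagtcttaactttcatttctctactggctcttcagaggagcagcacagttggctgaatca
Cxcl10, chr5:92348840-92349139, minus strand, motif starting 213 bases before the start: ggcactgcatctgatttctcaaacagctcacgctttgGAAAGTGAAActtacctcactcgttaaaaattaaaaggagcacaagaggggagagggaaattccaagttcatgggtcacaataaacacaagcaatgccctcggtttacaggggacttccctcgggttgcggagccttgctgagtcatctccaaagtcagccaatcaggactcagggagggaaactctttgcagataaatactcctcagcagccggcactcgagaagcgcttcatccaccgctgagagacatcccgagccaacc
Ctsd, chr7:142387778-142388077, minus strand, motif starting 99 bases before the start: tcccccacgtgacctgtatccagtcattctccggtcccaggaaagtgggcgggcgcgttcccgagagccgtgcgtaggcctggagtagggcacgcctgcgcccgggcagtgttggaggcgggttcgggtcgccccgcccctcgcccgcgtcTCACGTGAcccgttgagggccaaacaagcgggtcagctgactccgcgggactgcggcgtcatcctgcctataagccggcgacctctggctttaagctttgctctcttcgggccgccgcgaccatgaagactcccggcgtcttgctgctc
C1qc, chr4:136892865-136893164, minus strand, motif starting 195 bases before the start: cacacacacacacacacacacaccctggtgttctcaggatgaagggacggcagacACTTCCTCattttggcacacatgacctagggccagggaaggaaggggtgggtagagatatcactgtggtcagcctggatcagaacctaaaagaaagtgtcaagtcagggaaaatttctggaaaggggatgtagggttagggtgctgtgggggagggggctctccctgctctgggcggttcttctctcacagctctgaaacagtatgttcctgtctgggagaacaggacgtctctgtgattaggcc

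On the Zbp1 KO background, the transgenes went with a broad rise of microglial, complement, lysosomal, antigen-presentation and reactive astrocyte genes, and with few falls. Of 21274 genes tested, 252 were higher in Zbp1 KO 5xFAD than in Zbp1 KO libraries (1.18% of genes tested) and 9 were lower (0.0423%), at an edgeR adjusted p under 0.05. Of the 252, 197 rose by at least 2-fold, and the median log2 fold change over the 252 was 1.53, against -0.0033 over all genes tested. All 252 had 3 Zbp1 KO 5xFAD libraries above all 3 Zbp1 KO libraries. That separation alone was common, since 10.8% of all genes tested showed it upward and 10.6% downward. The 6 libraries held 27.6 to 34.6 M counts, and the other 6 of the cohort 8.4 to 34.5 M, the shallowest being a WT library. The number of calls depended on the libraries in the fit. Leaving out any 1 of the 6 compared libraries gave 121 to 167 higher genes, and fitting the 6 libraries alone gave 617 higher and 260 lower. Genes varied less within the compared groups than in the rest of the cohort. The median SD of log2 CPM was 0.123 in Zbp1 KO 5xFAD and 0.116 in Zbp1 KO libraries, against 0.252 in 5xFAD and 0.217 in WT libraries (n = 3 each, over 16253 genes with a mean of at least 1 CPM).

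**Figure D1:**
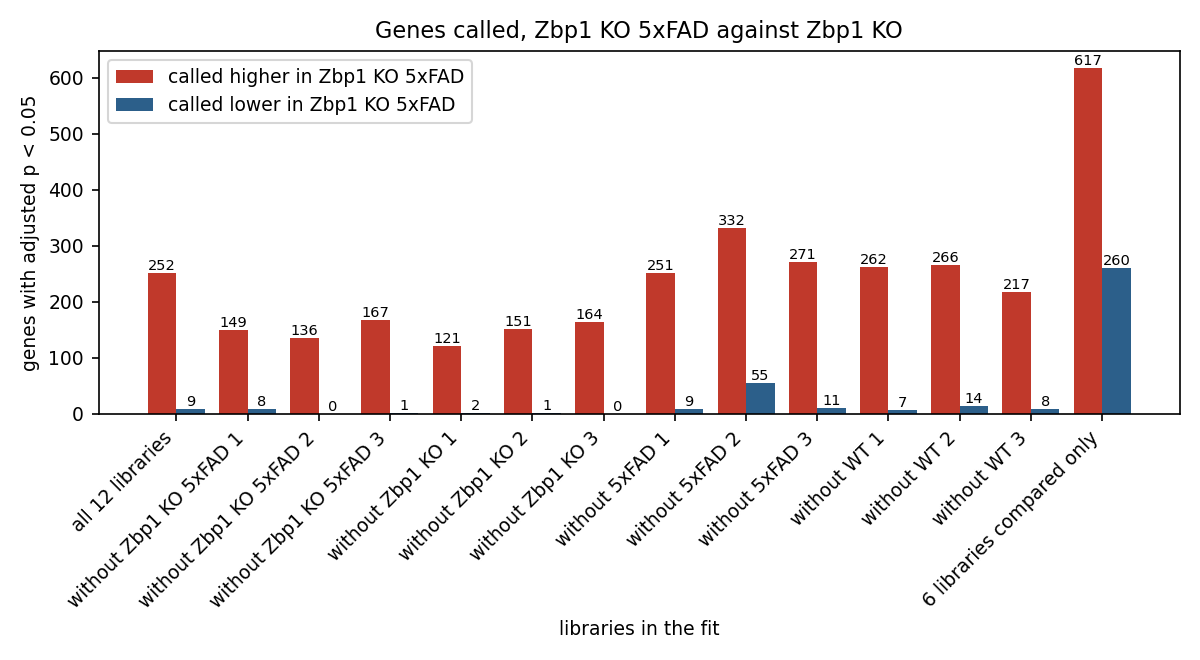
Number of genes called higher (red) and lower (blue) in Zbp1 KO 5xFAD against Zbp1 KO, with all 12 libraries of the cohort in the fit, with each left out in turn, and with the 6 compared libraries alone. Leaving out 1 of the 6 compared libraries lowers the higher count to 121 to 167, leaving out 1 of the others gives 217 to 332, and the 6 libraries alone give 617.

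The transgene and the knocked-out gene were read first as checks of the labels. Thy1, whose promoter drives the transgenes, had 1583, 1485 and 1468 CPM in the Zbp1 KO 5xFAD libraries, against 521, 565 and 513 CPM in the Zbp1 KO libraries. CPM values here are counts scaled to library size with TMM factors. All 3 Zbp1 KO 5xFAD libraries lay far above the Zbp1 KO libraries, and the log2 fold change was 1.50 ± 0.13 (SE), with an edgeR adjusted p of 7.2e-05. Reads of the Thy1 gene and of Thy1 sequence in the transgene cassette cannot be told apart in these counts. Mouse App had 1447, 1359 and 1446 CPM in the Zbp1 KO 5xFAD libraries, against 1537, 1492 and 1519.9 CPM in the Zbp1 KO libraries. Its log2 fold change of -0.10 ± 0.08 (SE), with an edgeR adjusted p of 0.96, did not pass the test. Zbp1 itself had 11, 9 and 9 counts in the Zbp1 KO 5xFAD libraries and 0, 0 and 11 counts in the Zbp1 KO libraries. The 5xFAD libraries of the cohort held 52, 52 and 125 Zbp1 counts, and the WT libraries 0, 12 and 3. The sources used here do not give the part of Zbp1 that the knockout removes, and the residual reads therefore test nothing about it. Of the kinases linked to ZBP1, Ripk1 had 8.60, 10.6 and 10.1 CPM in the Zbp1 KO 5xFAD libraries, against 6.20, 5.86 and 7.54 CPM in the Zbp1 KO libraries. The Zbp1 KO 5xFAD libraries were higher without overlap, but the difference of 0.58 ± 0.20 on the log2 scale did not pass the test (edgeR adjusted p = 0.32). Ripk3, the kinase that carries out necroptosis signalling, had 0.51, 0.392 and 0.463 CPM, against 0.497, 0.386 and 0.203 CPM, and Mlkl, its effector, 0.542, 0.498 and 0.166 CPM, against 0.232, 0.491 and 0.145 CPM, in Zbp1 KO 5xFAD and Zbp1 KO libraries, with overlapping groups in both cases.

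**Figure D2:**
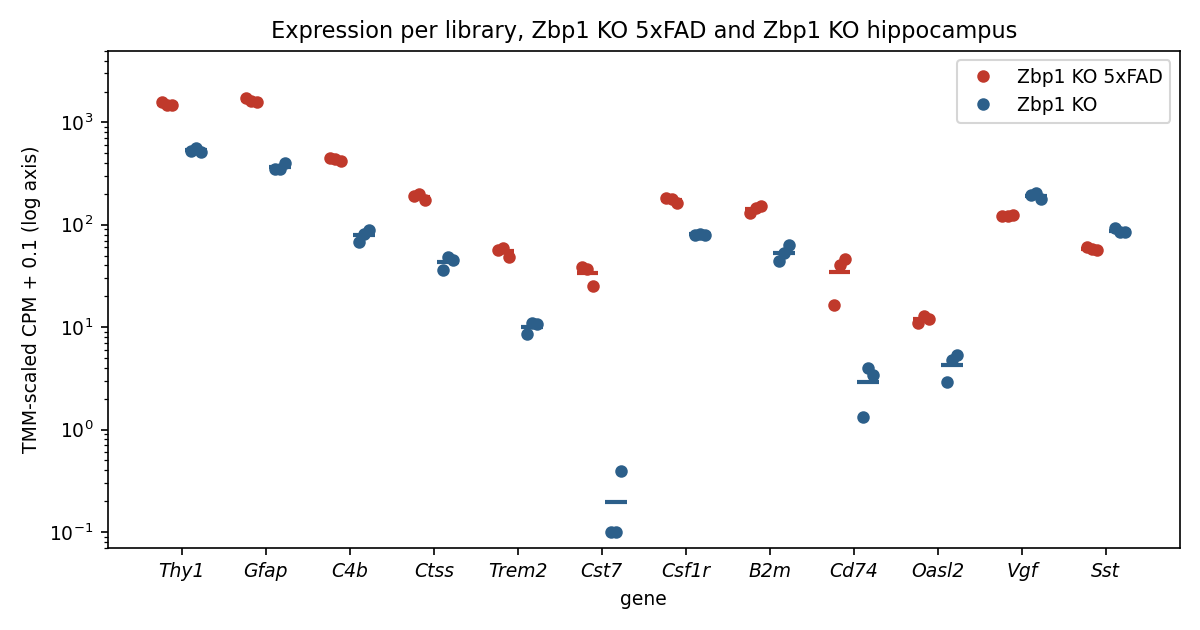
TMM-scaled CPM of 12 genes in each library on a log axis, with 0.1 CPM added so that zeros can be drawn. Red points on the left of each pair are the 3 Zbp1 KO 5xFAD libraries and blue points on the right the 3 Zbp1 KO libraries, with a line at each group's mean. The groups do not overlap for any of the 12 genes, Vgf and Sst being lower in Zbp1 KO 5xFAD libraries.

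Genes of disease-associated microglia rose most among the lists that gave calls. Among called genes with separate groups and a mean of at least 1 CPM over the 6 libraries, the 15 largest rises were those of Cst7, Itgax, Clec7a, Hcar2, Asb10, Olfr111, Lilrb4a, Ccl3, Pdcd1, Cd74, St14, Ly9, Cd52, H2-Ab1 and H2-Aa, with log2 fold changes between 3.11 and 8.24. The rise of Ly9, a receptor of leukocytes, was 3.45 ± 0.77 (SE), with an edgeR adjusted p of 0.046, and its call was lost on leaving out any 1 of the 6 libraries (0.073 to 0.27). Asb10 kept its call in 4 of those 6 fits (0.017 to 0.073). Of 30 such genes tested, 21 rose, none fell and 9 did not pass the test, and their median log2 fold change was 1.89. Between 15 and 20 rose when 1 of the 6 compared libraries was left out. Cst7, which encodes cystatin F, an inhibitor of lysosomal proteases, had 38.5, 36.9 and 25.1 CPM in the Zbp1 KO 5xFAD libraries, against 0, 0 and 0.29 CPM in the Zbp1 KO libraries. Its log2 fold change was 8.24 ± 0.95 (SE), with an edgeR adjusted p of 0.00037, and 2 Zbp1 KO libraries held no read. Itgax, the integrin subunit CD11c, had 29.7, 29.6 and 17.8 CPM in the Zbp1 KO 5xFAD libraries, against 0.0663, 0.211 and 0.348 CPM in the Zbp1 KO libraries. It rose by 6.88 ± 0.78 (SE), with an edgeR adjusted p of 0.00032. Clec7a, the pattern receptor dectin-1, had 22.1, 24.5 and 18.1 CPM in the Zbp1 KO 5xFAD libraries, against 0.199, 0.421 and 0 CPM in the Zbp1 KO libraries, a log2 change of 6.75 ± 0.77 (SE), with an edgeR adjusted p of 0.00032. These 3 genes were near absence without the transgenes and stood at 17 CPM or more in every Zbp1 KO 5xFAD library.

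The receptor that drives this microglial state and its partner were both higher. Trem2 had 57.1, 59.7 and 47.8 CPM in the Zbp1 KO 5xFAD libraries, against 8.45, 10.8 and 10.7 CPM in the Zbp1 KO libraries. The groups were well apart, with a log2 fold change of 2.46 ± 0.23 (SE), with an edgeR adjusted p of 0.00012. Tyrobp, the signalling adaptor of TREM2, had 27.1, 27.1 and 20.4 CPM in the Zbp1 KO 5xFAD libraries, against 3.85, 3.89 and 6.99 CPM in the Zbp1 KO libraries, a log2 change of 2.33 ± 0.32 (SE), with an edgeR adjusted p of 0.0016. Among phagocytic genes, Cd68, an endosomal glycoprotein of macrophages, had 34.3, 34.5 and 26.4 CPM in the Zbp1 KO 5xFAD libraries, against 6.23, 7.58 and 7.22 CPM in the Zbp1 KO libraries, and Lyz2, a lysozyme, had 48.6, 47.1 and 41.4 CPM, against 5.20, 8.74 and 8.82 CPM in the same order of groups. Their log2 fold changes were 2.18 ± 0.24 and 2.59 ± 0.29 (SE), with edgeR adjusted p-values of 0.00031 and 0.00032. Ccl3, a chemokine that attracts myeloid cells and lymphocytes, had 7.36, 5.59 and 3.67 CPM in the Zbp1 KO 5xFAD libraries, against 0.663, 0.14 and 0.203 CPM in the Zbp1 KO libraries. It was higher in every Zbp1 KO 5xFAD library, by 4.03 ± 0.67 (SE), with an edgeR adjusted p of 0.0056. Lilrb4a, an inhibitory receptor, had 7.998, 6.77 and 5.76 CPM in the Zbp1 KO 5xFAD libraries, against 0.365, 0.491 and 0.29 CPM in the Zbp1 KO libraries. Its rise of 4.16 ± 0.74 (SE), with an edgeR adjusted p of 0.010, was lost when any of the 3 Zbp1 KO libraries was left out. Apoe, a lipid carrier made by astrocytes and by plaque microglia, had 1523, 1807 and 1701 CPM in the Zbp1 KO 5xFAD libraries, against 1086, 1346 and 1174 CPM in the Zbp1 KO libraries. The groups did not overlap, but the difference of 0.48 ± 0.19 (SE), with an edgeR adjusted p of 0.46, did not pass the test. Apoe was picked out after its values were seen.

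Microglial genes of the resting state moved the same way and by less. Of 20 genes typical of homeostatic microglia, 11 rose, none fell and 9 did not pass the test, with a median log2 fold change of 0.96; 7 to 10 rose when 1 of the 6 compared libraries was left out. Csf1r, the receptor that microglia need to survive, had 183, 178 and 162 CPM in the Zbp1 KO 5xFAD libraries, against 79.2, 81.7 and 79.8 CPM in the Zbp1 KO libraries. It rose by 1.12 ± 0.16 (SE), with an edgeR adjusted p of 0.0016. Cx3cr1, the receptor for neuronal fractalkine, had 118, 98.6 and 85.2 CPM in the Zbp1 KO 5xFAD libraries, against 46.9, 45.1 and 42.5 CPM in the Zbp1 KO libraries, and rose by 1.17 ± 0.16 (SE), with an edgeR adjusted p of 0.0014. Every Zbp1 KO 5xFAD library was above every Zbp1 KO library for both genes. Tgfbr1 and Tgfbr2, receptors for the growth factor TGF-beta that maintains microglial identity, rose by 1.07 ± 0.13 and 1.32 ± 0.17 (SE), with edgeR adjusted p-values of 0.00047 and 0.00080. The purinergic receptor gene P2ry12 and the surface marker gene Tmem119, both picked out after their values were seen, did not pass the test. P2ry12 had 62.3, 58.7 and 46.5 CPM in the Zbp1 KO 5xFAD libraries, against 36.5, 40.1 and 31.7 CPM in the Zbp1 KO libraries, with a log2 difference of 0.63 ± 0.19 (SE), with an edgeR adjusted p of 0.20. Tmem119 had 22.4, 25.2 and 19.4 CPM in the Zbp1 KO 5xFAD libraries, against 19.4, 23.1 and 17.9 CPM in the Zbp1 KO libraries, with a log2 difference of 0.15 ± 0.23 (SE), with an edgeR adjusted p of 0.9998.

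Complement genes rose at the start of the classical pathway and at its central component. Of 18 complement genes tested, 7 rose and none fell, with a median log2 fold change of 0.91. C1qa, C1qb and C1qc encode the 3 chains of C1q, which recognises targets of the classical pathway. C1qa had 108, 108 and 101 CPM in the Zbp1 KO 5xFAD libraries, against 23.2, 25.7 and 25.7 CPM in the Zbp1 KO libraries. It rose by 2.09 ± 0.20 (SE), with an edgeR adjusted p of 0.00013. C1qb and C1qc, the gene whose promoter is printed above, rose by 1.81 ± 0.19 and 1.84 ± 0.23 (SE), with edgeR adjusted p-values of 0.00021 and 0.00066. C4b, the next component of that pathway and a gene of reactive glia, had 449, 439.6 and 421 CPM in the Zbp1 KO 5xFAD libraries, against 68.03, 81.4 and 89.6 CPM in the Zbp1 KO libraries. Its rise of 2.45 ± 0.16 (SE), with an edgeR adjusted p of 6.1e-06, had the smallest p-value of the list. C3, on which all complement pathways converge, had 12.7, 9.15 and 11.5 CPM in the Zbp1 KO 5xFAD libraries, against 1.79, 1.68 and 2.47 CPM in the Zbp1 KO libraries. The receptor for its fragment C3a, C3ar1, had 14.1, 14.5 and 13.8 CPM in the Zbp1 KO 5xFAD libraries, against 2.95, 3.40 and 2.06 CPM in the Zbp1 KO libraries. C3 rose by 2.48 ± 0.36 and C3ar1 by 2.34 ± 0.37 (SE), with edgeR adjusted p-values of 0.0023 and 0.0045, and neither gene's groups overlapped.

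Lysosomal genes rose in part. Of 30 tested, 14 rose, none fell and 16 did not pass the test, with a median log2 fold change of 0.56; only 7 or 8 rose when any 1 of the 6 compared libraries was left out. Ctss, the protease cathepsin S of microglia, had 191, 198 and 172 CPM in the Zbp1 KO 5xFAD libraries, against 35.7, 48.3 and 45.1 CPM in the Zbp1 KO libraries. It rose by 2.12 ± 0.17 (SE), with an edgeR adjusted p of 3.7e-05. Ctsd, the gene with a CLEAR element in its promoter, had 337, 358 and 302 CPM in the Zbp1 KO 5xFAD libraries, against 97.5, 124 and 104 CPM in the Zbp1 KO libraries. Its log2 fold change was 1.61 ± 0.23 (SE), with an edgeR adjusted p of 0.0018. Laptm5, a lysosomal membrane protein of blood-derived cells and microglia, rose by 1.63 ± 0.17 (SE), with an edgeR adjusted p of 0.00021. Smaller rises were measured for Man2b1, a mannosidase, at 0.92 ± 0.12, and for Grn, which encodes progranulin, at 0.94 ± 0.15 (SE), with edgeR adjusted p-values of 0.0013 and 0.0035. Grn had 101, 107 and 89.2 CPM in the Zbp1 KO 5xFAD libraries, against 50.4, 54.04 and 50.05 CPM in the Zbp1 KO libraries, with no overlap. The largest fitted difference of this list belonged to Atp6v0d2, a subunit of the proton pump, and did not pass the test (edgeR adjusted p = 0.0502). It had 1.56, 1.46 and 0.861 CPM in the Zbp1 KO 5xFAD libraries, against 0, 0 and 0 CPM in the Zbp1 KO libraries. Against the limit of 3 counts that a sum of 0 over the Zbp1 KO group allows, it was at least 40.2-fold higher in Zbp1 KO 5xFAD libraries. Atp6v0d2 was named after its value was seen.

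Antigen-presentation genes rose in both classes. Of 22 tested, 12 rose and none fell, with a median log2 fold change of 1.29, and 4 to 10 rose when 1 of the 6 compared libraries was left out. H2-D1, a class I heavy chain, had 82.7, 125 and 125 CPM in the Zbp1 KO 5xFAD libraries, against 32.1, 39.2 and 40.5 CPM in the Zbp1 KO libraries. B2m, the light chain shared by class I molecules, had 129, 145 and 152 CPM in the Zbp1 KO 5xFAD libraries, against 43.8, 52.7 and 62.98 CPM in the Zbp1 KO libraries. Both were higher in each Zbp1 KO 5xFAD library, H2-D1 by 1.57 ± 0.16 and B2m by 1.42 ± 0.19 (SE), with edgeR adjusted p-values of 0.00021 and 0.0013. Psmb8 and Psmb9, subunits of the immunoproteasome that cuts peptides for class I, rose by 1.59 ± 0.30 and 1.46 ± 0.28 (SE), with edgeR adjusted p-values of 0.013 and 0.019. Each of these calls was kept in 2 of the 6 fits that left out a library, with adjusted p-values of 0.025 to 0.079 for Psmb8 and 0.032 to 0.13 for Psmb9. H2-D1 and its class I relatives are near-identical in parts, so reads may be split between them by the counting.

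For class II, Cd74, the invariant chain that guides these molecules to endosomes, had 16.5, 40.1 and 46.5 CPM in the Zbp1 KO 5xFAD libraries, against 1.23, 3.93 and 3.28 CPM in the Zbp1 KO libraries. It rose by 3.61 ± 0.53 (SE), with an edgeR adjusted p of 0.0023. H2-Ab1, a class II beta chain, had 5.86, 12.9 and 12.1 CPM in the Zbp1 KO 5xFAD libraries, against 0.961, 1.40 and 1.19 CPM in the Zbp1 KO libraries, and rose by 3.12 ± 0.47 (SE), with an edgeR adjusted p of 0.0029. H2-Aa, the alpha chain, had 6.47, 14.7 and 15.2 CPM in the Zbp1 KO 5xFAD libraries, against 0.265, 2.11 and 1.83 CPM in the Zbp1 KO libraries. Zbp1 KO 5xFAD library 1 was the lowest of its group for all 3 genes, and Zbp1 KO library 1 the lowest of its own. H2-Aa rose by 3.11 ± 0.65 (SE), with an edgeR adjusted p of 0.031, but kept its call only without Zbp1 KO 5xFAD library 1; over the 6 such fits the adjusted p was 0.036 to 0.13. Summed over Cd74, H2-Aa, H2-Ab1 and H2-Eb1, class II reached 34.2, 76.9 and 83.7 CPM in the Zbp1 KO 5xFAD libraries, against 3.61, 9.97 and 8.50 CPM in the Zbp1 KO libraries. The summed markers of choroid plexus, a tissue beside the hippocampus, were also lowest in library 1 among the Zbp1 KO 5xFAD libraries, at 776, 4897 and 4372 CPM, against 630.0, 2005 and 346 CPM in the Zbp1 KO libraries. Their part in the class II values was not tested.

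Interferon-response genes were shifted upward as a list, with few calls. All 39 genes tested had a positive log2 fold change, with a median of 0.93, but 6 rose, none fell and 33 did not pass the edgeR test. In the fit of the 6 libraries alone 15 of 38 rose, and 2 to 5 rose when 1 of those libraries was left out of the 12-library fit. Trim30a, a ubiquitin ligase that dampens innate signalling, had 9.81, 9.15 and 10.3 CPM in the Zbp1 KO 5xFAD libraries, against 2.88, 3.02 and 2.99 CPM in the Zbp1 KO libraries. Its groups were far apart relative to their spread, and it rose by 1.72 ± 0.19 (SE), with an edgeR adjusted p of 0.00031. Oasl2, a member of the oligoadenylate synthetase family, had 10.99, 12.8 and 11.9 CPM in the Zbp1 KO 5xFAD libraries, against 2.78, 4.63 and 5.22 CPM in the Zbp1 KO libraries. It rose by 1.50 ± 0.21 (SE), with an edgeR adjusted p of 0.0016. Ifit3, an antiviral RNA-response gene whose promoter carries a pair of response elements, had 15.9, 17.7 and 18.97 CPM in the Zbp1 KO 5xFAD libraries, against 6.83, 9.51 and 6.70 CPM in the Zbp1 KO libraries. Its rise was 1.19 ± 0.25 (SE), with an edgeR adjusted p of 0.030, and was called in 1 of the 6 fits that left out a library, with adjusted p-values of 0.045 to 0.20. Ifit3 and its near-identical neighbour Ifit3b, which rose by 1.08 ± 0.18 (edgeR adjusted p = 0.0071), may exchange reads in the counting. The Ifit3b call was lost without Zbp1 KO 5xFAD library 2 and without Zbp1 KO libraries 1 and 2, over an adjusted p range of 0.020 to 0.060. Mx1, an antiviral GTPase, had 1.72, 1.57 and 1.49 CPM in the Zbp1 KO 5xFAD libraries, against 0.464, 0.175 and 0.174 CPM in the Zbp1 KO libraries. Cxcl10, a chemokine that attracts T cells, had 1.21, 2.14 and 1.46 CPM in the Zbp1 KO 5xFAD libraries, against 0.265, 0.281 and 0.406 CPM in the Zbp1 KO libraries. Both were low in all 6 libraries and higher in Zbp1 KO 5xFAD, Mx1 by 2.54 ± 0.49 and Cxcl10 by 2.31 ± 0.51 (SE), with edgeR adjusted p-values of 0.018 and 0.043. When each library was left out in turn, the Mx1 call was kept in 1 fit (0.018 to 0.11) and the Cxcl10 call in none (0.067 to 0.24).

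Inflammatory mediators and cell-death genes gave scattered calls. Of 19 cytokine and NF-kB target genes tested, 3 rose and none fell, with a median log2 fold change of 0.62. Tlr2, a receptor for bacterial lipopeptides and aggregated proteins, had 7.33, 5.41 and 5.50 CPM in the Zbp1 KO 5xFAD libraries, against 0.696, 0.211 and 1.22 CPM in the Zbp1 KO libraries, and rose by 3.07 ± 0.48 (SE), with an edgeR adjusted p of 0.0036. Cxcl16, a transmembrane chemokine, had 2.58, 5.31 and 2.48 CPM in the Zbp1 KO 5xFAD libraries, against 0.829, 0.667 and 1.16 CPM in the Zbp1 KO libraries. Icam1, an adhesion molecule for leukocytes, had 4.30, 4.49 and 5.33 CPM in the Zbp1 KO 5xFAD libraries, against 1.72, 2.49 and 2.61 CPM in the Zbp1 KO libraries. These last calls were marginal, with log2 changes of 1.95 ± 0.43 and 1.05 ± 0.24 (SE) and edgeR adjusted p-values of 0.040 and 0.049, and both were lost on leaving out any 1 of the 6 libraries (0.055 to 0.26 and 0.11 to 0.30). Of 27 genes of the cell-death machinery, 2 rose and none fell, with a median of 0.28. Tnfrsf1a, the receptor of TNF that engages RIPK1, had 19.1, 19.1 and 18.6 CPM in the Zbp1 KO 5xFAD libraries, against 7.53, 9.75 and 10.1 CPM in the Zbp1 KO libraries. Pycard, the adaptor of inflammasomes, had 4.56, 4.81 and 3.97 CPM in the Zbp1 KO 5xFAD libraries, against 1.79, 1.33 and 2.55 CPM in the Zbp1 KO libraries. Tnfrsf1a rose by 1.05 ± 0.21 and Pycard by 1.23 ± 0.26 (SE), with edgeR adjusted p-values of 0.025 and 0.033; in the 6 fits without 1 library, the Tnfrsf1a call was always lost and the Pycard call kept without Zbp1 KO library 3 (0.070 to 0.18 and 0.024 to 0.19).

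Reactive astrocyte genes rose while general astrocyte markers moved little. Of 26 genes of reactive astrocytes tested, 8 rose and none fell, with a median log2 fold change of 0.90, and 5 to 7 rose when a compared library was left out. Gfap, the intermediate filament that marks reactive astrocytes, had 1743, 1625 and 1584 CPM in the Zbp1 KO 5xFAD libraries, against 347, 351 and 398 CPM in the Zbp1 KO libraries. Its 2 groups were tight and far apart, with a rise of 2.18 ± 0.16 (SE), with an edgeR adjusted p of 2.5e-05. Serpina3n, a secreted protease inhibitor, had 145, 121 and 116 CPM in the Zbp1 KO 5xFAD libraries, against 36.7, 40.1 and 34.5 CPM in the Zbp1 KO libraries. It rose by 1.78 ± 0.22 (SE), with an edgeR adjusted p of 0.00059. Osmr, the receptor of oncostatin M, had 31.8, 26.8 and 27.2 CPM in the Zbp1 KO 5xFAD libraries, against 7.76, 8.39 and 8.44 CPM in the Zbp1 KO libraries, and rose by 1.80 ± 0.20 (SE), with an edgeR adjusted p of 0.00031. Of 15 general astrocyte markers, the water channel gene Aqp4 rose and the other 14 did not pass the test, with a median of 0.11. Aqp4 had 301, 261 and 265 CPM in the Zbp1 KO 5xFAD libraries, against 149, 158 and 171 CPM in the Zbp1 KO libraries, a rise of 0.79 ± 0.13 (SE), with an edgeR adjusted p of 0.0057, which missed the threshold without Zbp1 KO library 1 (adjusted p of at most 0.053). Fgfr3, a growth-factor receptor of astrocytes, had 115, 127 and 125 CPM in the Zbp1 KO 5xFAD libraries, against 159, 157 and 145 CPM in the Zbp1 KO libraries. All 3 Zbp1 KO 5xFAD libraries were lower, by -0.33 ± 0.11 (SE), with an edgeR adjusted p of 0.32, which did not pass the test.

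The oligodendrocyte lineage contributed few calls. Of 20 myelin and oligodendrocyte genes, Trf, the iron carrier transferrin, rose and the other 19 did not pass the test, with a median log2 fold change of 0.12. Trf had 488, 490.2 and 402 CPM in the Zbp1 KO 5xFAD libraries, against 233, 260.0 and 289 CPM in the Zbp1 KO libraries. It rose by 0.82 ± 0.14 (SE), with an edgeR adjusted p of 0.0057, and missed the threshold without Zbp1 KO library 1 (adjusted p of at most 0.055). In Ripk1 D138N 5xFAD against Ripk1 D138N libraries, 14 of the same 20 genes rose, with a median of 0.60, and whether the 2 cohorts differ in this was not tested. Of 11 genes of disease-associated oligodendrocytes, 4 rose with a median of 0.35, among them C4b and Serpina3n, which glia of other types also express. Klk6, a secreted protease of this state, had 4.14, 4.59 and 3.18 CPM in the Zbp1 KO 5xFAD libraries, against 0.431, 0.912 and 1.60 CPM in the Zbp1 KO libraries. It rose by 2.002 ± 0.45 (SE), with an edgeR adjusted p of 0.046, with a call in 1 of the 6 fits without 1 library (0.030 to 0.23). None of the 10 markers of oligodendrocyte precursors was called by edgeR, at an unadjusted p under 0.05 or by DESeq2.

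**Figure D3:**
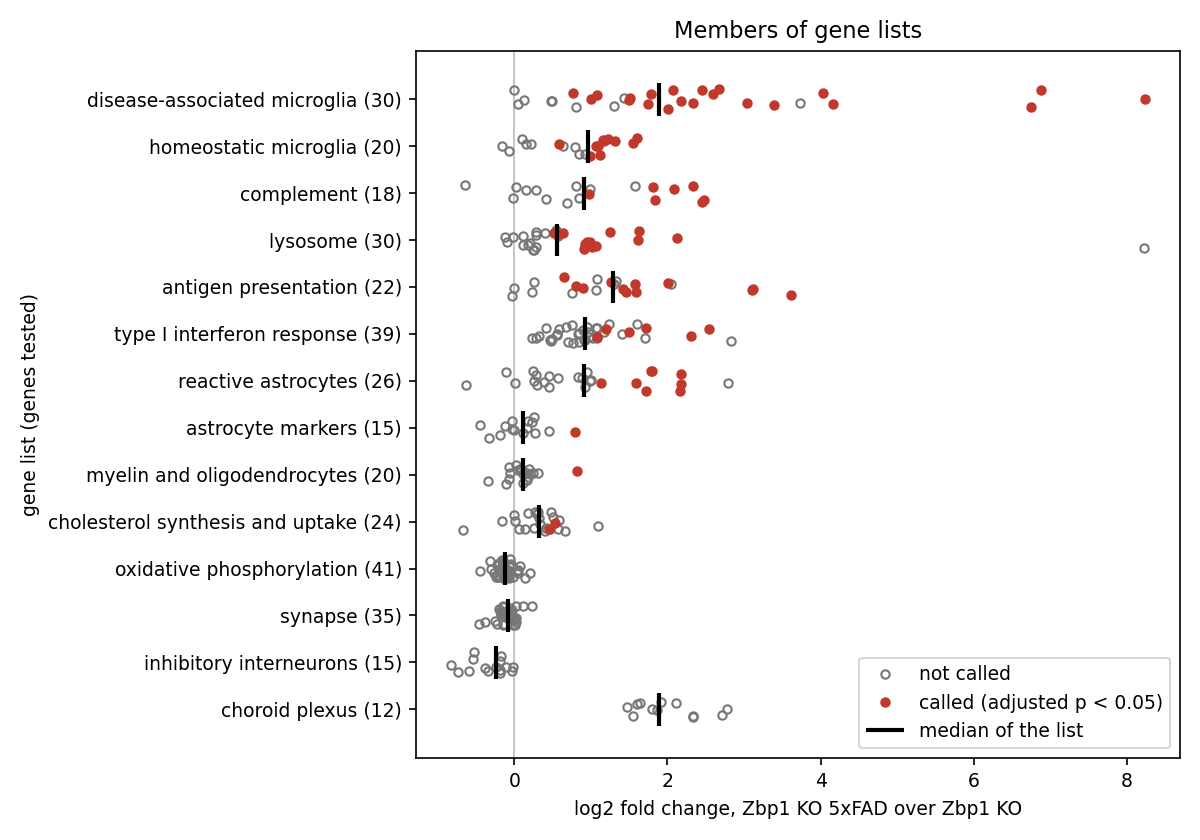
log2 fold change of Zbp1 KO 5xFAD over Zbp1 KO for each tested gene of 14 lists, 1 point per gene, with the number of genes in brackets. Filled red points were called at an edgeR adjusted p under 0.05, open grey points were not, and black bars mark list medians. Medians run from 1.89 for disease-associated microglia to -0.24 for inhibitory interneurons, and choroid plexus has a median of 1.89 with no call.

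Of the 9 genes that fell, none belonged to a gene list, and their median log2 fold change was -0.65. Vgf, a secreted neuropeptide precursor induced by growth factors, had 122, 121 and 126 CPM in the Zbp1 KO 5xFAD libraries, against 197, 202 and 179 CPM in the Zbp1 KO libraries. All 3 Zbp1 KO 5xFAD libraries were lower, and Vgf fell with a log2 fold change of -0.65 ± 0.14 (SE), with an edgeR adjusted p of 0.038. Crhr1, the receptor of corticotropin-releasing hormone, had 7.27, 9.61 and 7.28 CPM in the Zbp1 KO 5xFAD libraries, against 17.1, 13.6 and 15.2 CPM in the Zbp1 KO libraries, a log2 change of -0.93 ± 0.20 (SE), with an edgeR adjusted p of 0.036. Npas2, a circadian transcription factor of forebrain neurons, had 24.4, 22.7 and 24.3 CPM in the Zbp1 KO 5xFAD libraries, against 33.5, 36.04 and 36.8 CPM in the Zbp1 KO libraries, a log2 change of -0.57 ± 0.11 (SE), with an edgeR adjusted p of 0.013. Scrt1, a neuronal transcriptional repressor, and Stac2, an adaptor of calcium channels, had log2 changes of -0.46 ± 0.10 and -0.62 ± 0.13 (SE), with edgeR adjusted p-values of 0.033 and 0.030. Zfp365 stood at 355, 339 and 328 CPM in the Zbp1 KO 5xFAD libraries, against 431, 449.7 and 453 CPM in the Zbp1 KO libraries. Its fall was small, at -0.38 ± 0.08 (SE), with an edgeR adjusted p of 0.020. Mybpc1, a myosin-binding protein gene, and the predicted gene Gm4202 fell by larger steps, with log2 changes of -1.35 ± 0.28 and -2.22 ± 0.41 (SE) and edgeR adjusted p-values of 0.029 and 0.012. The last of the 9, Gm44020, which fell under the level minimum for naming and is given to complete the count, had 0 counts in the 3 Zbp1 KO 5xFAD libraries and 46 in the 3 Zbp1 KO libraries. Without 1 compared library, between 0 and 8 genes were lower, the highest count being without Zbp1 KO 5xFAD library 1. None of Vgf, Crhr1, Scrt1, Zfp365 and Mybpc1 kept its call in any of the 6 such fits. Npas2 and Stac2 kept theirs in 1 each, and Gm4202 in 3. Their adjusted p-values ranged over 0.082 to 0.19 for Vgf, 0.057 to 0.21 for Crhr1, 0.095 to 0.20 for Scrt1, 0.056 to 0.12 for Zfp365 and 0.086 to 0.20 for Mybpc1. For Npas2 the range was 0.049 to 0.10, for Stac2 0.041 to 0.17 and for Gm4202 0.030 to 0.084.

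Inhibitory interneuron markers were lower on balance, without a call in the main 12-library fit. All 15 genes tested had a negative log2 fold change, with a median of -0.24. edgeR called none, 8 had an unadjusted p under 0.05, DESeq2 called 3 lower and the fit of the 6 libraries alone called 6 lower. The 12-library fit called 5 lower without a filter on low counts, and 1 lower with the filter of at least 1 CPM in 3 libraries. Sst, the neuropeptide somatostatin, had 60.6, 57.4 and 56.4 CPM in the Zbp1 KO 5xFAD libraries, against 93.6, 84.1 and 84.9 CPM in the Zbp1 KO libraries. Pvalb, the calcium buffer parvalbumin, had 12.7, 11.5 and 9.96 CPM in the Zbp1 KO 5xFAD libraries, against 17.8, 22.1 and 20.6 CPM in the Zbp1 KO libraries. Neither gene's groups overlapped, and the log2 differences were -0.59 ± 0.18 and -0.82 ± 0.25 (SE), with edgeR adjusted p-values of 0.21 and 0.22. Gad1, which makes the transmitter GABA, had 271, 227 and 253 CPM in the Zbp1 KO 5xFAD libraries, against 347, 317 and 318 CPM in the Zbp1 KO libraries. It was lower in each Zbp1 KO 5xFAD library, by -0.39 ± 0.09 (SE), with an edgeR adjusted p of 0.073. Npy, the neuropeptide Y gene, differed by -0.73 ± 0.21 (SE), with an edgeR adjusted p of 0.18. When edgeR was fitted to the 6 libraries alone, these genes were called at adjusted p-values of 0.00022 for Sst, 0.0029 for Pvalb, 0.0059 for Gad1 and 0.0079 for Npy. Markers of tissue around the hippocampus also stood lower, which touches these values. The median log2 fold change was -0.33 over 14 neocortex and subiculum genes (3 of them lower at an unadjusted p under 0.05) and -0.27 over 10 striatum genes. Their part in the interneuron values was not tested.

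Synaptic, mitochondrial and activity genes had list medians between -0.12 and 0.01 and no call in the 12-library edgeR fit. Positive log2 fold changes were held by 6 of 35 synapse, 6 of 41 oxidative phosphorylation and 11 of 21 immediate early genes, against 49.4% of all genes tested. All 3 Zbp1 KO 5xFAD libraries lay below all 3 Zbp1 KO libraries for 11, 9 and 4 of these genes, against 10.6% of all genes tested. Fitted to the 6 libraries alone, edgeR called 4 synapse genes, 1 of oxidative phosphorylation, 2 immediate early genes and 3 hippocampal subfield markers lower, and the 12-library fit without a filter on low counts called 1 synapse gene, 2 immediate early genes and 1 subfield marker lower and 1 immediate early gene higher. Over 35 synapse genes the median log2 fold change was -0.09, 6 had an unadjusted p under 0.05, all lower, and DESeq2 called 1 lower. Cacng3, an auxiliary subunit of AMPA receptors, had 45.98, 44.4 and 37.5 CPM in the Zbp1 KO 5xFAD libraries, against 60.6, 57.02 and 58.2 CPM in the Zbp1 KO libraries. Its groups did not overlap, and the difference was -0.46 ± 0.11 (SE), with an edgeR adjusted p of 0.068, and of 0.0079 in the fit of the 6 libraries alone. Snap25, a core protein of vesicle fusion, had 1812, 1648 and 1716 CPM in the Zbp1 KO 5xFAD libraries, against 2014, 1940.1 and 1924 CPM in the Zbp1 KO libraries, with a log2 difference of -0.18 ± 0.08 (SE), with an edgeR adjusted p of 0.59. Over 41 genes of oxidative phosphorylation the median was -0.12, with no call by DESeq2 and none at an unadjusted p under 0.05. Over 21 activity-regulated immediate early genes the median was 0.01, with no call by DESeq2 and 1 gene at an unadjusted p under 0.05. That gene, Nr4a2, a nuclear receptor induced by neuronal activity, had 48.6, 59.1 and 40.2 CPM in the Zbp1 KO 5xFAD libraries, against 68.6, 76.6 and 72.7 CPM in the Zbp1 KO libraries. All 3 Zbp1 KO 5xFAD libraries were lower, by -0.56 ± 0.16 (SE), with an edgeR adjusted p of 0.18, and of 0.013 with the 6 libraries alone. Over 17 markers of hippocampal subfields the median was 0.03, with 2 genes lower at an unadjusted p under 0.05 and 1 lower by DESeq2. Wfs1, a gene of CA1 pyramidal cells, had 91.9, 91.1 and 58.1 CPM in the Zbp1 KO 5xFAD libraries, against 119, 143 and 143 CPM in the Zbp1 KO libraries, with Zbp1 KO 5xFAD library 3 the lowest, and differed by -0.75 ± 0.20 (SE), with an edgeR adjusted p of 0.10, and of 0.0079 with the 6 libraries alone.

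Genes of cholesterol synthesis were slightly higher. Of 24 tested, 21 had a positive log2 fold change, 2 rose and none fell, with a median of 0.33, and the 6-library fit called 13 of 23 higher. Hmgcs1, an early enzyme of the pathway, had 284, 264 and 266 CPM in the Zbp1 KO 5xFAD libraries, against 192, 215 and 190.1 CPM in the Zbp1 KO libraries. It rose by 0.45 ± 0.08 (SE), with an edgeR adjusted p of 0.013. Msmo1, a later sterol oxidase, had 94.1, 99.7 and 93.9 CPM in the Zbp1 KO 5xFAD libraries, against 66.2, 68.7 and 63.8 CPM in the Zbp1 KO libraries. It rose by 0.53 ± 0.12 (SE), with an edgeR adjusted p of 0.047. Both genes' groups were separate and tight, but the Hmgcs1 call was kept in 2 of the 6 fits without 1 library (0.028 to 0.12) and the Msmo1 call in none (0.12 to 0.25). Sqle, squalene epoxidase, had 80.4, 85.3 and 80.8 CPM in the Zbp1 KO 5xFAD libraries, against 64.1, 65.4 and 57.3 CPM in the Zbp1 KO libraries, and its difference of 0.40 ± 0.10 (SE), with an edgeR adjusted p of 0.086, did not pass the test.

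Markers of cell types from outside the parenchyma gave no call in the 12-library edgeR fit or by DESeq2. Choroid plexus genes stood out by size and by their spread. All 12 had a positive log2 fold change, with a median of 1.89, 2 had an unadjusted p under 0.05, and the 6-library fit called 5 higher. Without a filter on low counts, the 12-library fit called all 12 of them and 1 fibroblast and meningeal gene higher. Enpp2, a lipid-signalling enzyme abundant in that tissue, had 389.6, 1912 and 1558 CPM in the Zbp1 KO 5xFAD libraries, against 249, 611 and 203 CPM in the Zbp1 KO libraries. Zbp1 KO 5xFAD library 1 lay within the Zbp1 KO range and the other 2 lay above it, for a log2 difference of 1.86 ± 0.95 (SE), with an edgeR adjusted p of 0.73. Summed markers of T and NK lymphocytes amounted to 2.78 to 3.56 CPM in the Zbp1 KO 5xFAD libraries and 0.928 to 1.28 CPM in the Zbp1 KO libraries, over 7 genes, 2 of them at an unadjusted p under 0.05. The 10 peripheral myeloid genes had a median of 0.47, and 0 had an unadjusted p under 0.05. Among them Ccr2, a receptor of blood monocytes, had 0.351, 0.32 and 0.629 CPM in the Zbp1 KO 5xFAD libraries, against 0.199, 0.211 and 0.058 CPM in the Zbp1 KO libraries. It was under 1 CPM throughout, with a difference of 1.47 ± 0.81 (SE), with an edgeR adjusted p of 0.79. For 20 endothelial and mural genes the median was -0.01, with 1 gene at an unadjusted p under 0.05, and for 10 fibroblast and meningeal genes it was 0.09, with 0 such genes. Medians over 5 red blood cell, 11 thalamus and habenula and 6 sex-linked genes were 0.08, -0.20 and -0.04.

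Most of the genes that rose here in the 12-library fit also rose on the 2 other backgrounds, which share no library with this comparison. The 5xFAD libraries differed from WT libraries of the cohort by 638 higher genes (3% of genes tested) and 27 lower (0.127%). Of the 252 genes higher in Zbp1 KO 5xFAD, 246 were also called higher there, which is 97.6% of the 252 and 38.6% of the 638. These counts and shares depended on the fit. With each comparison fitted to its own 6 libraries, 617 genes were higher on the Zbp1 KO background and 338 on the intact one, and the 283 in common were 45.9% of the 617 and 83.7% of the 338. Leaving out 1 of the 5xFAD or WT libraries gave 407 to 771 higher and 6 to 332 lower genes in 5xFAD against WT, the lowest counts without 5xFAD library 1 and the highest without 5xFAD library 2. Ripk1 D138N 5xFAD libraries differed from Ripk1 D138N libraries by 666 higher (3.12%) and 55 lower genes (0.257%). Of the 252, 222 were called higher there too, which is 88.1% of the 252 and 33.3% of the 666. Called higher on the Zbp1 KO background and on neither of the others were 5 genes: Arhgef16, Cxcl16, A130077B15Rik, Rp2 and Msmo1, of which Arhgef16, A130077B15Rik and Rp2 were named after their values were seen. Their log2 fold changes were 2.27 ± 0.52, 1.95 ± 0.43, 1.77 ± 0.40, 0.65 ± 0.15 and 0.53 ± 0.12 (SE), with edgeR adjusted p-values of 0.0499, 0.040, 0.049, 0.047 and 0.047, all near the threshold. When each of the 6 compared libraries was left out in turn, Arhgef16 and A130077B15Rik kept their calls in 1 fit each (0.045 to 0.29 and 0.046 to 0.28), and Cxcl16, Rp2 (0.14 to 0.23) and Msmo1 in none. All 5 also had positive log2 changes in 5xFAD against WT, of 1.28, 1.42, 1.23, 0.36 and 0.33. Of the 9 lower genes, 5 were called lower in 5xFAD against WT and 0 in the Ripk1 D138N comparison.

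The sizes of the transgene effect on the Zbp1 KO and intact backgrounds were compared by an interaction term. Of 21274 genes tested, edgeR called 0, with 480 at an unadjusted p under 0.05, and DESeq2 called 0, with 587. Both counts lie below a share of 0.05 of the genes tested, which that threshold would pass with no interaction at all. Over 664 genes picked only by their rise in the Ripk1 D138N comparison, the median log2 fold change was 0.85 in Zbp1 KO 5xFAD against Zbp1 KO, 1.31 in 5xFAD against WT and 1.13 in the Ripk1 D138N comparison that picked them. Of these, 593 had the larger absolute value in 5xFAD against WT. The same count was not made over all genes tested, and 5xFAD and WT libraries varied more within their groups. By list, the median was 0.93 on the Zbp1 KO background and 1.90 on the intact one for interferon genes, with 6 and 29 of 39 called higher. For disease-associated microglia it was 1.89 and 2.85, with 21 and 26 of 30 called, and for antigen presentation 1.29 and 2.02, with 12 and 18 of 22 called. In the Ripk1 D138N comparison, also with intact Zbp1, the interferon median was 1.20, with 23 genes called higher. There the median was 2.75 for disease-associated microglia, with 26 called, and 1.36 for antigen presentation, with 10 called. Differences between the cohorts were not tested. The intact libraries were uneven. Trem2 had 156, 154 and 74.8 CPM in 5xFAD libraries, and Cst7 4.70, 0.128 and 0.334 CPM in WT libraries. Summed choroid plexus markers were 237, 6259 and 7437 CPM in 5xFAD and 427, 7002 and 363 CPM in WT libraries. The part of this unevenness in the medians was not tested. The call counts depended on the libraries fitted. With each background fitted to its own 6 libraries, interferon genes called higher were 15 of 38 and 21 of 39, disease-associated microglial genes 26 and 22 of 30, and antigen-presentation genes 15 and 15 of 22, with medians of 0.92 and 1.90, 1.89 and 2.85, and 1.29 and 2.03. A negative interaction term means a lower log2 fold change on the Zbp1 KO background. Terms were negative for 37 of 39 interferon genes, 23 of 30 disease-associated microglial genes and 22 of 22 antigen-presentation genes. Over all genes tested, 48.8% of the terms were positive. Negative terms were not particular to these lists, with 18 of 20 myelin genes, 14 of 15 astrocyte markers and 33 of 41 oxidative phosphorylation genes. Some other lists had mostly positive terms, with negative terms for 4 of 35 synapse and 0 of 12 choroid plexus genes. Synapse genes had medians of -0.09 on the Zbp1 KO background and -0.20 on the intact one, a smaller fall without Zbp1. For choroid plexus the medians were 1.89 and 0.93, and for oxidative phosphorylation -0.12 and 0.03. None of these terms passed the adjusted test.

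Oasl2 and Gbp5 were among the 10 genes with the smallest interaction p-values. Oasl2, given above for the Zbp1 KO background, had 24.98, 23.2 and 22.8 CPM in the 5xFAD libraries, against 3.38, 4.28 and 3.61 CPM in the WT libraries. Its effect was 1.50 ± 0.21 without Zbp1 and 2.64 ± 0.22 with it (log2, SE), and the interaction was -1.14 ± 0.29 (SE), with an unadjusted p of 0.0016 and an edgeR adjusted p of 0.9999. Gbp5, an interferon-induced GTPase, had 5.35, 6.59 and 6.89 CPM in the Zbp1 KO 5xFAD libraries, against 3.78, 5.44 and 6.27 CPM in the Zbp1 KO libraries. With Zbp1 intact it had 11.8, 7.80 and 15.4 CPM in the 5xFAD libraries, against 2.65, 2.01 and 2.98 CPM in the WT libraries. The Zbp1 KO groups overlapped and the intact groups did not, for effects of 0.28 ± 0.27 and 2.20 ± 0.29 on the log2 scale, and the interaction was -1.92 ± 0.39 (SE), with an unadjusted p of 0.00023 and an edgeR adjusted p of 0.9999. Fas, a death receptor, had 1.85, 1.92 and 2.28 CPM in the Zbp1 KO 5xFAD libraries, against 3.32, 2.14 and 4.004 CPM in the Zbp1 KO libraries. With Zbp1 intact it had 3.16, 4.07 and 3.09 CPM in the 5xFAD libraries, against 1.21, 1.69 and 1.71 CPM in the WT libraries, and the interaction was -1.77 ± 0.42 (SE), with an unadjusted p of 0.00088 and an edgeR adjusted p of 0.9999. None of the 3 interactions is a call.

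**Figure D4:**
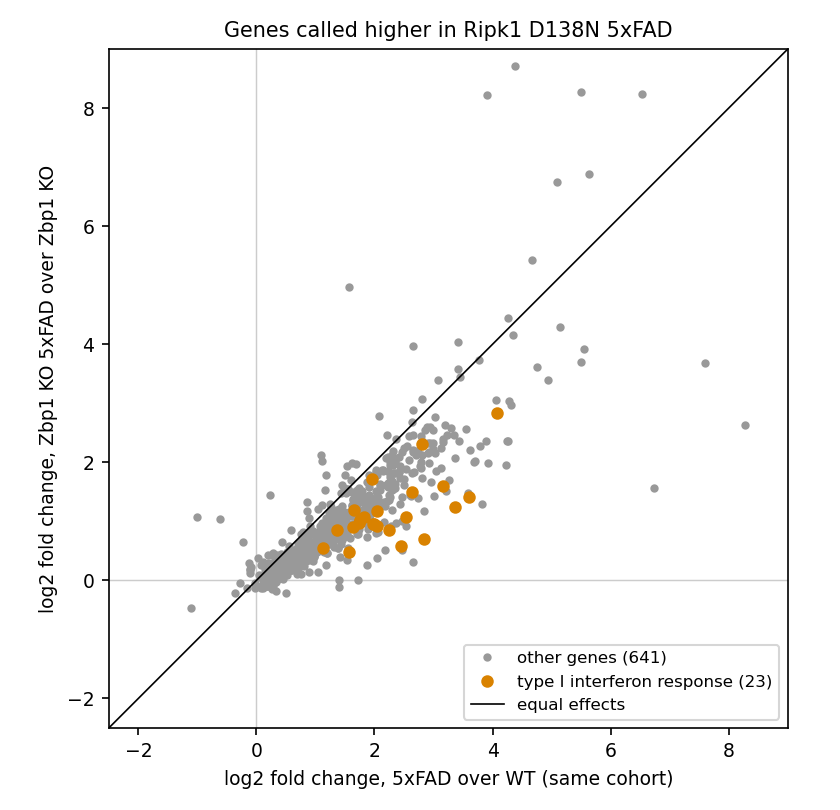
log2 fold change of Zbp1 KO 5xFAD over Zbp1 KO (vertical axis) against that of 5xFAD over WT in the same cohort (horizontal axis), for 664 genes picked by their rise in Ripk1 D138N 5xFAD over Ripk1 D138N. Orange points are 23 interferon-response genes, and the line marks equal effects. The absolute log2 fold change was larger in 5xFAD over WT for 593 of the 664 genes, a count not made over all genes tested.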

How the data were processed

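Polyadenylated hippocampal RNA was sequenced, with RNAiso Plus extraction and an ABclonal library kit per the labels. The deposited tables hold the authors' whole-number read counts per gene, unnormalised. HISAT2, DESeq2 1.42.1 and edgeR 4.0.16 are named per the submitters' processing notes, which list mm10 and mm39; counting settings and strandedness: not given in the sources used here. Neither table holds a row without a gene. Of 55487 gene IDs, 19260 had no count, and 21274 passed filterByExpr. edgeR 4.0.16 (R 4.3.3, limma 3.58.1) with TMM scaling was fitted by quasi-likelihood to the 12 libraries of the cohort, with Benjamini-Hochberg adjustment and a threshold of 0.05. The SE is the log2 fold change over the square root of F. Alternatives were DESeq2 1.42.0, RLE scaling, other filters, a replicate block, the 6 libraries alone and each library left out. Replicates of a group were not duplicates (chi-square per degree of freedom 7.76 or more). Named genes were the 15 largest rises and falls with separate groups and at least 1 CPM, up to 6 genes of smallest p per list, the targets, and 10 by interaction; exceptions are marked. The comparison and all 30 gene lists were chosen with earlier results of these data known. The code was tested on simulated data. Of the 252 higher genes, 192 have a RefSeq promoter window, so no motif share over a gene set is given. The RNA immunoprecipitation libraries were not used here.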

Additional observations from a re-analysis of the deposited data

Results flagged for a closer look

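Asb18, a gene of the ankyrin repeat and SOCS box family, had 7.30, 6.02 and 6.22 CPM in the Zbp1 KO 5xFAD libraries, against 4.28, 4.25 and 4.09 CPM in the Zbp1 KO libraries. In the same cohort with Zbp1 intact it had 3.48, 3.31 and 3.93 CPM in the 5xFAD libraries, against 6.63, 5.01 and 5.55 CPM in the WT libraries. All 3 carriers lay above the non-carriers without Zbp1 and all 3 below them with Zbp1, so every library moved one way on one background and the opposite way on the other, which is why the gene is listed here. Its log2 fold change was 0.63 ± 0.20 on the Zbp1 KO background, with an edgeR adjusted p of 0.22, and -0.67 ± 0.20 on the intact one (SE), with an edgeR adjusted p of 0.12. The interaction was 1.30 ± 0.28 (SE), with an unadjusted p of 0.00039 and an edgeR adjusted p of 0.9999, so edgeR did not call the difference. Such opposite separation of 3 and 3 libraries was seen in 31 of 21274 genes tested (0.146%). Whether that is more than would arise with no difference between backgrounds was not tested.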

How the results depend on the processing

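For Zbp1 KO 5xFAD against Zbp1 KO, RLE scaling gave 258 higher and 9 lower genes and the stricter filter, at least 1 CPM in 3 libraries, 263 and 10. Without a filter 555 genes were higher and 73 lower, DESeq2 called 453 and 57, and the 6 libraries alone gave 617 and 260; the cause was not tested. Leaving out 1 of the 12 libraries gave 121 to 332 higher and 0 to 55 lower. For the interaction, 0 genes were called in every alternative run except the one without a filter, with 13 higher and 16 lower. For 5xFAD against WT, lower genes numbered 80 without a filter, 54 with the replicate block and 136 by DESeq2, the 6 libraries alone gave 338 higher and 1 lower, and leaving out a library gave 407 to 771 higher and 6 to 332 lower. For Ripk1 D138N 5xFAD against Ripk1 D138N, lower genes numbered 129 without a filter, 105 with the replicate block, 279 by DESeq2 and 15 with 6 libraries, and leaving out a library gave 435 to 575 higher and 3 to 166 lower. Leaving out a library leaves its group with 2. Deviations from the group mean correlated at 0.186, 0.129 and 0.002 between same-numbered Zbp1 KO 5xFAD and Zbp1 KO libraries. Between differently numbered ones they correlated at -0.19 to 0.092. The labels give no pairing, and these values do not settle whether replicate numbers pair the libraries. With a replicate block, 319 genes were higher and 12 lower. Of 110 genes checked under 18 settings, 0 changed sign, and of the 83 called, 47 kept their call in every setting that tested them. Most settings leave out 1 library, and genes whose groups do not overlap could hardly change sign there, so the unchanged signs say little about them. No lymphocyte marker passed the stricter filter. Genes under about 1 CPM rest on few reads, so a difference there was not detectable at this depth unless large.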

Other observations

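Of the 252 genes higher in Zbp1 KO 5xFAD libraries, 89 (35.3%) belonged to one of the gene lists and 163 to none. The genes named here were picked from those 163 after their values were seen, and they are given as values only. Irf8, a factor needed for microglial maturation, had 24.5, 27.8 and 18.1 CPM in the Zbp1 KO 5xFAD libraries, against 3.78, 6.91 and 3.83 CPM in the Zbp1 KO libraries, a log2 fold change of 2.28 ± 0.23 (SE), with an edgeR adjusted p of 0.00021. Spi1, which encodes PU.1, had 7.04, 8.19 and 4.93 CPM in the Zbp1 KO 5xFAD libraries, against 2.19, 2.39 and 2.32 CPM in the Zbp1 KO libraries, and rose by 1.55 ± 0.29 (SE), with an edgeR adjusted p of 0.013. Runx1 and Ikzf1, other haematopoietic regulators, rose by 1.62 ± 0.21 and 1.28 ± 0.26 (SE), with edgeR adjusted p-values of 0.0011 and 0.025. Leaving out 1 compared library at a time, the Ikzf1 call was lost in all 6 fits (0.063 to 0.14) and the Spi1 call kept in 1 (0.011 to 0.088). Both Fc-gamma receptor genes of this set were higher, Fcgr2b, the inhibitory one, by 2.56 ± 0.28 and Fcgr3, an activating one, by 1.64 ± 0.19 (SE), with edgeR adjusted p-values of 0.00031 and 0.00039. Ptprc, the leukocyte phosphatase CD45, had 21.4, 22.7 and 18.1 CPM in the Zbp1 KO 5xFAD libraries, against 4.67, 6.21 and 5.34 CPM in the Zbp1 KO libraries, and rose by 1.94 ± 0.28 (SE), with an edgeR adjusted p of 0.0019.

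Pdcd1, the checkpoint receptor PD-1, had 2.64, 2.46 and 1.06 CPM in the Zbp1 KO 5xFAD libraries, against 0.0663, 0.316 and 0.029 CPM in the Zbp1 KO libraries. Lag3, another checkpoint receptor, had 20.1, 24.1 and 21.02 CPM in the Zbp1 KO 5xFAD libraries, against 3.15, 5.19 and 5.48 CPM in the Zbp1 KO libraries. Havcr2, the receptor TIM-3, had 8.92, 12.5 and 7.78 CPM in the Zbp1 KO 5xFAD libraries, against 3.78, 3.16 and 3.16 CPM in the Zbp1 KO libraries. The groups did not overlap for these 3 genes, whose rises were 3.92 ± 0.80, 2.24 ± 0.27 and 1.53 ± 0.23 (SE), with edgeR adjusted p-values of 0.026, 0.00059 and 0.0024. The Pdcd1 call was kept in 2, the Lag3 call in 6 and the Havcr2 call in 6 of the 6 fits without 1 compared library (0.023 to 0.18, 0.0024 to 0.0050 and 0.0040 to 0.022). The summed T and NK lymphocyte markers were also higher, at 2.78 to 3.56 CPM in the Zbp1 KO 5xFAD and 0.928 to 1.28 CPM in the Zbp1 KO libraries. The part of lymphocytes in these 3 genes was not tested. Cd33, a sialic acid-binding receptor, and Inpp5d, the lipid phosphatase SHIP1, whose human counterparts lie in risk loci of Alzheimer's disease, rose by 1.11 ± 0.24 and 1.15 ± 0.18 (SE), with edgeR adjusted p-values of 0.036 and 0.0031, and the Cd33 call was lost on leaving out any 1 of the 6 compared libraries (0.088 to 0.20). Cnr2, the peripheral cannabinoid receptor, had 2.23, 1.85 and 1.22 CPM in the Zbp1 KO 5xFAD libraries, against 0.133, 0.14 and 0.058 CPM in the Zbp1 KO libraries, and rose by 3.97 ± 0.56 (SE), with an edgeR adjusted p of 0.0017. Hcar2, a receptor of ketone bodies, had 3.09, 1.78 and 1.26 CPM in the Zbp1 KO 5xFAD libraries, against 0.133, 0 and 0 CPM in the Zbp1 KO libraries, a rise of 5.43 ± 0.97 (SE), with an edgeR adjusted p of 0.0097; its Zbp1 KO group rested on 4 counts in all, and the call was lost without Zbp1 KO library 2 or 3 (0.015 to 0.062).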
